A study of Mus musculus with 6 samples.

Results

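Cbl, Cblb, Cbll1, Ubash3a, Ubash3b, Cd2ap, Sla and Sla2 encode the CBL ubiquitin ligases, a CBL-like ligase and the adaptors that bind CBL proteins directly. They were taken by gene name from the deposited table, where each name matched 1 row, so the set holds 8 of 47729 genes. RNA had been sequenced from follicular helper T (Tfh) cells, which are CD4 T cells of the germinal centre that support B cell selection. The cells were sorted from mouse spleen as CD4+, TCRb+, PD1hi and CXCR5hi. The 3 double knockout libraries carry the genotype Cbl-/- Cbl-b-/-, and the 3 control libraries are labelled as wild type. Mice of both groups had received the hapten-carrier antigen NP-OVA by intraperitoneal injection. The labels name no deleted exons, Cre driver, strain or age. Nor do they say whether each library came from its own mouse, and the p-values below then reflect only how much these libraries vary, which may be technical.

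CBL and CBL-B are RING-type E3 ubiquitin ligases that bind tyrosine-phosphorylated proteins and mark receptors and kinases below the T cell receptor for internalisation or degradation. UBASH3A (TULA, STS-2) and UBASH3B (STS-1) bind CBL through their SH3 domains, and UBASH3B is a phosphatase that acts on ZAP-70 and SYK. CD2AP is a scaffold with several SH3 domains, while SLA (SLAP) and SLA2 (SLAP-2) are adaptors that bring CBL to the receptor complex and lower its surface level. CBLL1 (HAKAI) shares the RING type of CBL and is also a part of the m6A RNA methylation writer complex.

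Libraries held 23392254 to 38368885 reads assigned to genes. Values are normalised read counts, which the authors had divided by 1 size factor per library. All 8 Tfh and CD4 markers that were listed were tested, none of them passed the test, and their summed level was 353197 to 382186 in double knockout and 452791 to 487715 in control libraries. Trac (mean 61.9% of control) and Cd4 (81.1%) were lower in every double knockout library than in every control, and Cd3e (122%) was higher. The groups overlapped for Cxcr5 (91.5%), Pdcd1 (95.5%), Bcl6 (105%), Icos (97.2%) and Il21 (103%). The summed level of 5 B cell markers was 843 to 1834 in double knockout and 984 to 1525 in control libraries, and that of 5 myeloid markers was 77.0 to 124 in double knockout and 126 to 199 in control libraries. No gene of any marker list was at 0 in every library. Among 5 NK and innate-like T cell markers, the gamma-delta receptor constant gene Trdc rose and the NK receptor gene Klrb1c fell, and the summed level was 6383 to 13331 in double knockout and 3054 to 3612 in control libraries. Trdc made up most of that sum in double knockout libraries and Klrb1c most of it in controls. Zbtb16 was at 207, 79.5 and 51.0 in double knockout libraries, against 22.6, 28.8 and 5.5 in controls, and did not pass (limma adjusted p = 0.103). The groups overlapped for Ncr1 and Tcrg-C1. Of the 2 CD8 genes listed, Cd8b1 fell and made up nearly all of their summed level, 113 to 188 in double knockout and 420 to 510 in control libraries. Cd8a, the defining CD8 gene, was at 2, 0 and 3.6 in double knockout libraries and at 0 in all 3 controls, too low to be tested. The summed level of 3 regulatory T cell markers was 8505 to 17398 in double knockout and 12915 to 17835 in control libraries. Ikzf2 made up most of that sum and was lower in every double knockout library than in every control (mean 68.0% of control). Il2ra went the other way (318%) with overlapping groups, and neither gene passed the test. Foxp3 stood at 5451 in double knockout replicate 2 and at 150 and 295 in the other double knockout libraries, against 286 to 768 in the controls. Of 5 sex-linked transcripts, 4 Y-linked genes fell and 1 rose. The X-inactivation RNA Xist stood at 12769 to 18100 in double knockout and 13 to 970 in control libraries, and the Y-linked Ddx3y at 0 to 7 in double knockout and 2812 to 3721 in control libraries. Sex and genotype therefore cannot be told apart. This holds for autosomal genes as well, and all 8 genes described here lie on autosomes. The part of these other-cell and sex-linked shifts in the results below was not tested.

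All 8 genes passed the filter on low values (a value of at least 10 in at least 3 libraries), with between 995 and 24402 reads each per library. Cbl and Ubash3b fell in the double knockout, none of the 8 rose, and the other 6 did not pass the test (limma on log2(value + 1), Benjamini-Hochberg adjusted p below 0.05). Of all 13602 genes tested, 1.07% were called lower and 1.85% higher. With edgeR on whole reads recovered from the values, the same 2 of the 8 genes were called, and 1.08% of all genes were lower and 1.9% higher. DESeq2 on those reads also called these 2 alone, and called 3.19% of all genes lower and 4.88% higher. Since cells were pooled in a sort, fewer cells carrying a transcript and less of it per cell cannot be told apart. The double knockout and control ranges did not overlap for 4 of the 8 genes: Cbl, Ubash3b and Cbll1 were lower in every double knockout library, as were 11.3% of all genes tested, and Sla was higher in every one, as were 12.3%. The median log2 fold change of the 8 genes was -0.12, beside -0.0011 over all genes tested.

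**Figure D1:**
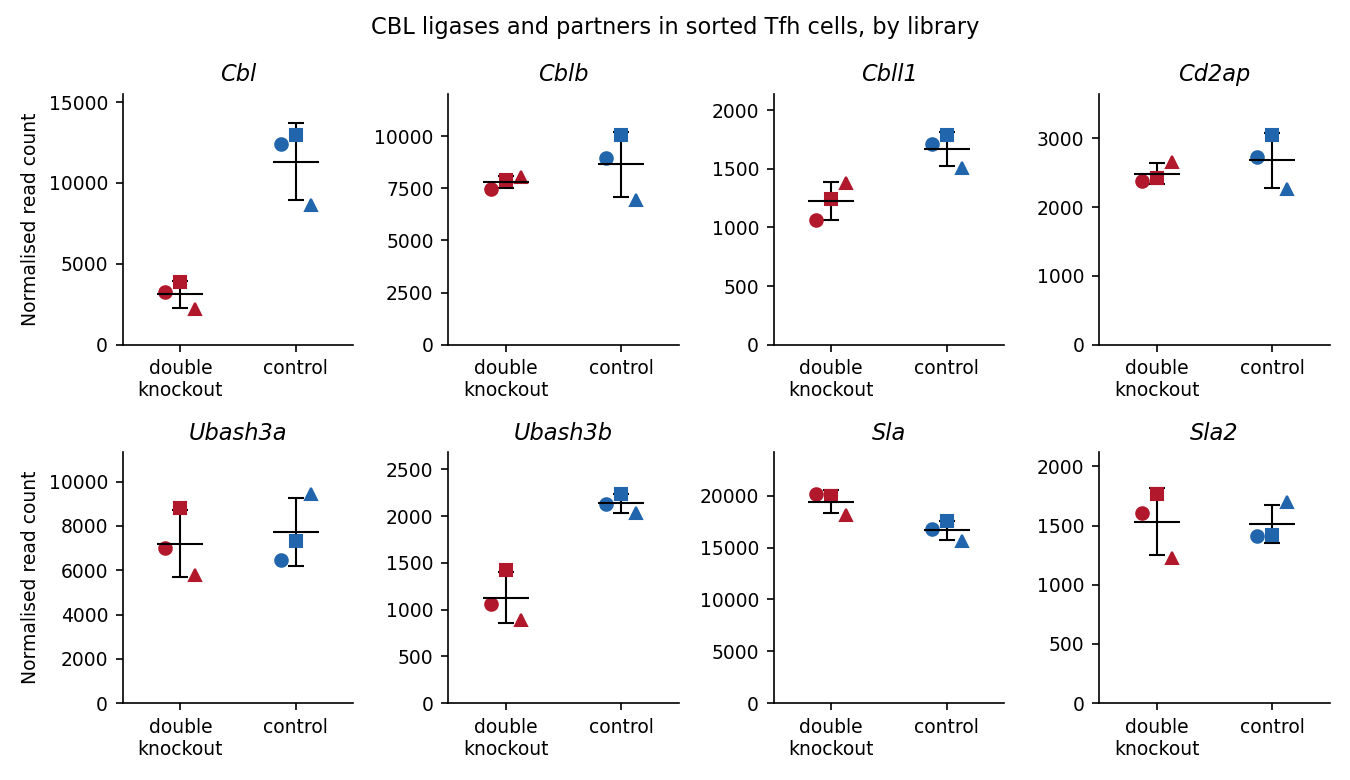
Normalised read counts (y axes, each from 0) of the 8 genes in double knockout and control Tfh libraries. Circles, squares and triangles are replicates 1, 2 and 3, and bars give the mean with the SD of 3 libraries. Cbl, Ubash3b and Cbll1 lie lower and Sla lies higher in every double knockout library than in every control.

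Among the ligases, Cbl is a target of the knockout. In GRCm38 the gene (ENSMUSG00000034342) spans 44142976 to 44234049 on the minus strand of chromosome 9. Divided by its 12345 exon bases, its level was 264, 312 and 179.9 normalised counts per kilobase in double knockout replicates 1 to 3, against 1006, 1049 and 698 in control replicates 1 to 3. Each double knockout library lay far below each control. The mean normalised count in the double knockout was 27.5% of that in the control, a log2 fold change of -1.88 ± 0.23 (SE, limma adjusted p = 0.00888). Reads of the whole gene are summed, and which exons they fell on was not analysed here, so the remaining reads do not show an intact transcript. The log2 fold change was -1.80 without control replicate 1, where the call was lost (adjusted p = 0.0524).

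Cblb (ENSMUSG00000022637, chromosome 16, 52031225 to 52208048, plus strand), the other targeted ligase, had 712, 752 and 769 normalised counts per kilobase in double knockout libraries, against 854, 958 and 664 in controls. The groups overlapped, since control replicate 3 lay lowest of the 6 libraries. The log2 fold change was -0.13 (95% confidence interval -0.45 to 0.19, limma adjusted p = 0.703), so a change in whole-gene Cblb reads larger than that interval was not seen. A whole-gene total checks a knockout only where the deleted part or decay of the transcript removes reads, and whether either holds for Cblb is not known here.

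Because both ligases share an ancestor, reads could in principle be assigned to the wrong one. Their coding sequences in GENCODE M21 (2739 bases for Cbl, 2946 for Cblb) were identical at 65.5% of 2623 aligned bases, and the transcripts had no 31-base word in common. The longest run shared by both coding sequences was 20 bases. It is shown here with 18 bases on either side, the shared run in capitals, from chr9:44167327-44169070 (minus strand, exons 4 and 5 of 16) for Cbl and chr16:52131171-52135763 (plus strand, exons 5 and 6 of 19) for Cblb, each span including the intron between its exons.
Cbl: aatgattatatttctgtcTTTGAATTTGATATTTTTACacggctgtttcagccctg
Cblb: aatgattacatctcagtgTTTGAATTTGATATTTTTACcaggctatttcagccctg
Any longer stretch of one coding sequence therefore differs from the other.

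Within each library, the ratio of Cbl to Cblb does not depend on the size factor. The log2 ratio of their normalised counts was -1.19, -1.03 and -1.86 in double knockout libraries, against 0.47, 0.37 and 0.31 in controls. All 3 double knockout ratios lay below 0 and all 3 control ratios above it, a difference of means of -1.74 (two-sided exact permutation p = 0.1, the smallest that 3 against 3 libraries allow, 0.15 adjusted over 3 ratios). Per kilobase of exon, Cbl made up 25.1% ± 5.5 of the summed Cbl and Cblb level in double knockout libraries and 52.5% ± 1.4 in controls (SD, n = 3 each). The summed level itself was 997 ± 60.5 normalised counts per kilobase in double knockout libraries and 1743 ± 338 in controls (SD, n = 3 each), 57.2% of control.

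Cbll1 (ENSMUSG00000020659, chromosome 12, 31484829 to 31499616), the CBL-like ligase, had 1059, 1239 and 1378 normalised counts in double knockout libraries, against 1709, 1785 and 1504 in controls. The groups did not overlap, but double knockout replicate 3 and control replicate 3 came close. The mean was 73.6% of control, with a log2 fold change of -0.45 (95% confidence interval -0.75 to -0.15) that did not pass over all genes (limma adjusted p = 0.122). It passed as lower with library weights (log2 fold change -0.58, adjusted p = 0.0141), a setting that called 4.4% of all genes lower and 5.65% higher. Of the 31-base words in Cbll1 transcripts, 15.2% also occur in 1 other gene, and 704 of its exon bases overlap an antisense gene that had 66 reads over the 6 libraries, against 8691 for Cbll1. Words were compared on both strands, so the antisense gene may be that other gene. Cblc, the remaining CBL gene of mammals, was close to absent, at 0, 0 and 2.7 normalised counts in double knockout and 0, 0 and 0.9 in control libraries.

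**Figure D2:**
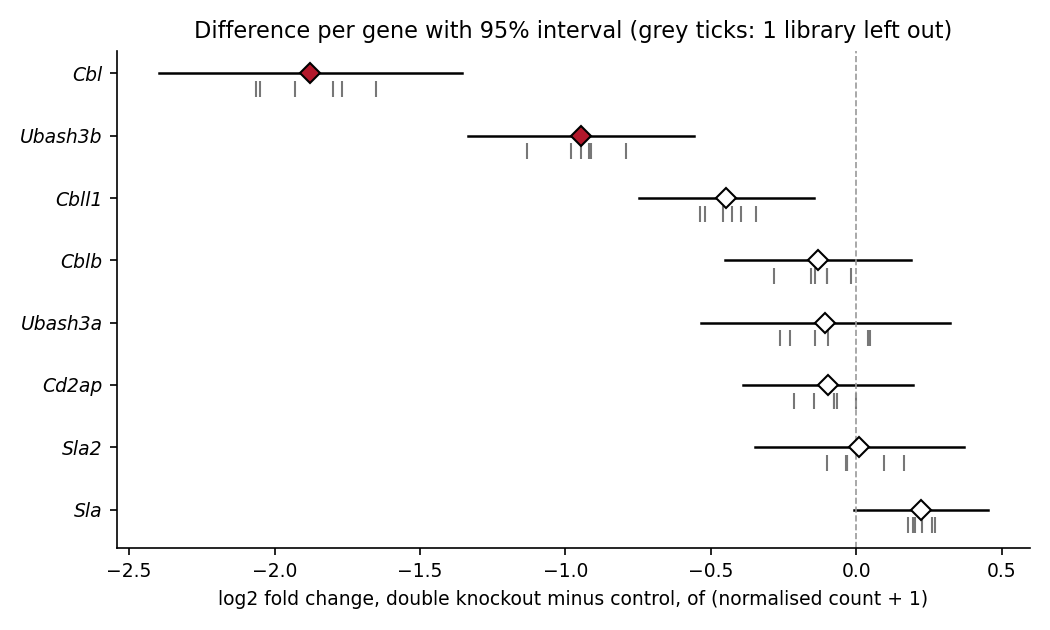
Log2 fold changes (x axis, double knockout minus control, of normalised count + 1) of the 8 genes. Diamonds are estimates from limma with 95% confidence intervals, filled where the adjusted p was below 0.05 (Cbl and Ubash3b), and grey ticks below each are the estimates with 1 library left out. The ticks of Cbl, Ubash3b, Cbll1 and Cblb stay below 0, those of Sla stay above it, and those of Ubash3a, Cd2ap and Sla2 fall on both sides.

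Of the UBASH3 pair, the phosphatase gene Ubash3b fell and Ubash3a did not pass. Ubash3b (ENSMUSG00000032020, chromosome 9, 41011098 to 41161697, minus strand) had 1064, 1428 and 890 normalised counts in double knockout libraries, against 2129, 2237 and 2037 in controls. The highest double knockout library lay well below the lowest control. The mean was 52.8% of control, a log2 fold change of -0.95 ± 0.17 (SE, limma adjusted p = 0.0281). The call was lost without double knockout replicate 1 (adjusted p = 0.136), control replicate 1 (0.115), control replicate 2 (0.109) or control replicate 3 (0.068), while the log2 fold changes in those fits were between -0.98 and -0.91. In the authors' deposited table, the log2 fold change of Ubash3b was -0.84 with an adjusted p of 9.57e-05.

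Ubash3a (ENSMUSG00000042345, chromosome 17, 31207873 to 31246892) is the lymphocyte member of the pair. It had 7007, 8803 and 5791 normalised counts in double knockout libraries, against 6474, 7297 and 9447 in controls. The groups overlapped throughout, with a log2 fold change of -0.11 (95% confidence interval -0.54 to 0.32, limma adjusted p = 0.84). The sign of that value turned with library weights (0.019), and also where replicate 3 of the double knockout (0.039) or of the control (0.046) was left out.

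The log2 ratio of Ubash3b to Ubash3a within a library was -2.72, -2.62 and -2.70 in double knockout libraries, against -1.60, -1.71 and -2.21 in controls. The double knockout libraries held almost the same ratio (SD 0.051), all below every control, and control replicate 3 lay nearest to them (SD of controls 0.33). The difference of means was -0.84 (two-sided exact permutation p = 0.1, the smallest possible, 0.15 adjusted over 3 ratios). Per kilobase, Ubash3b made up 19.3% ± 0.55 of the summed UBASH3 level in double knockout libraries and 30.1% ± 4.6 in controls (SD, n = 3 each). Within the double knockout, Cbl, Ubash3b, Ubash3a and Sla2 were each highest in replicate 2 and lowest in replicate 3. The other members went otherwise, with Cblb, Cbll1 and Cd2ap highest in replicate 3 and Sla in replicate 1. Replicate 2 is the library with the high Foxp3 value. Whether these are connected was not tested. The transcripts of Ubash3a and Ubash3b had no 31-base word in common.

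**Figure D3:**
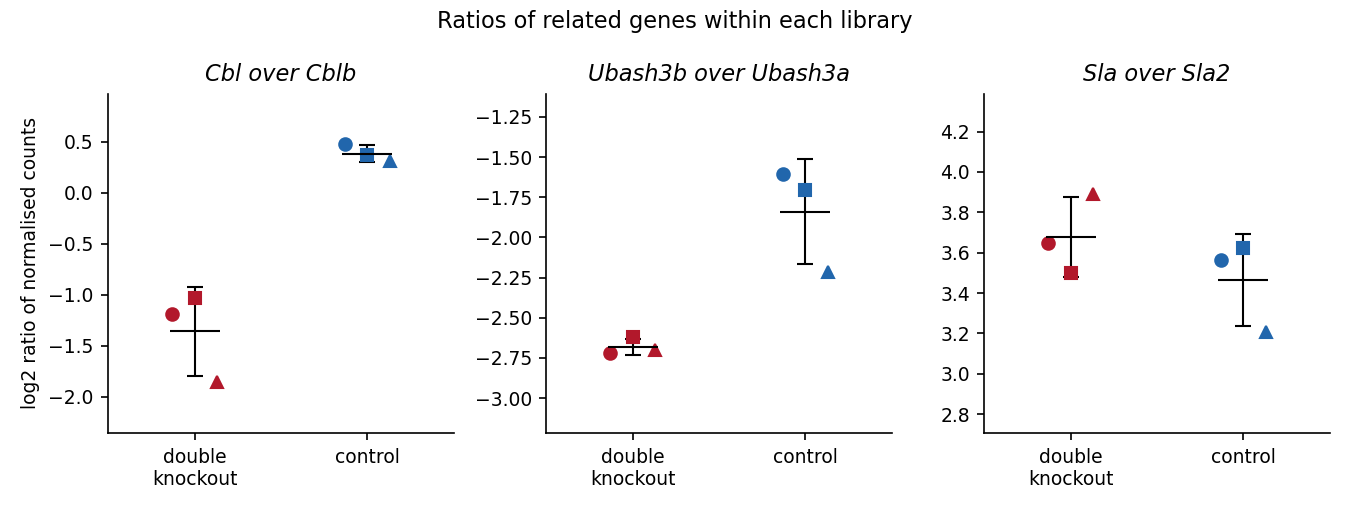
Log2 ratios of normalised counts (y axes) of Cbl over Cblb, Ubash3b over Ubash3a and Sla over Sla2 within each double knockout and control library. Circles, squares and triangles are replicates 1, 2 and 3, and bars give the mean with the SD of 3 libraries. The first 2 ratios are lower in every double knockout library than in every control, and the groups overlap for Sla over Sla2.

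Ubash3b and Cbl, the members that fell, both lie on mouse chromosome 9 with 2.98 Mb between them. Of 72 tested genes within 5 Mb of Cbl, Ubash3b among them and Cbl itself left out, 2.78% were called lower and 11.1% higher, beside the 1.07% and 1.85% over all genes tested. Of the 11 tested genes that lie between Ubash3b and Cbl, 2 rose and none fell. The tested protein-coding gene nearest to Cbl at its 3' end is Mcam, an adhesion molecule gene on the opposite strand whose annotated end is 248 bases away. It was singled out after its values were seen. Mcam had 781, 769 and 1204 normalised counts in double knockout libraries, against 0, 26 and 8.3 in controls. Its control libraries held almost no reads, and it rose in the double knockout (limma adjusted p = 0.0149). The nearest tested protein-coding gene on the other side, Nlrx1, which encodes a mitochondrial NOD-like receptor, fell (log2 fold change -1.15 ± 0.17, limma adjusted p = 0.0161) and was also named after its values were seen. Sex, the chromosome region around Cbl and the loss of the ligases all go with genotype in these libraries and cannot be told apart.

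**Figure D4:**
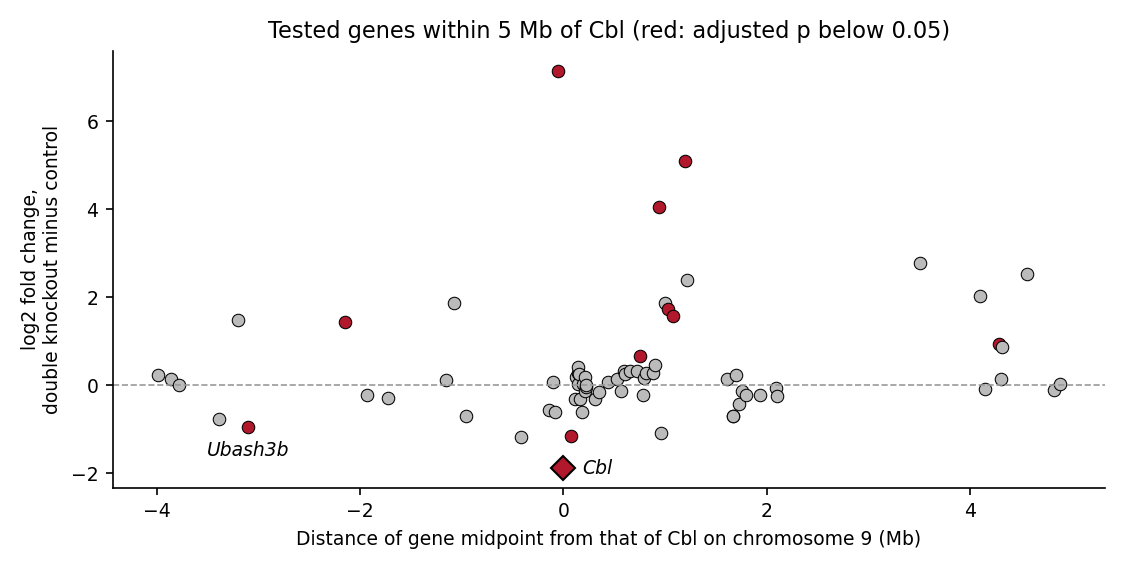
Log2 fold changes (y axis, double knockout minus control) of tested genes within 5 Mb of Cbl on chromosome 9, against the distance of each gene's midpoint from that of Cbl (x axis, in Mb). Red points passed an adjusted p of 0.05 and the diamond is Cbl; Ubash3b is 1 of the 2 genes around Cbl that were called lower, and 8 were called higher.

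The promoters of these 2 genes are shown because they are the members that fell. Each is the 250 bases before the RefSeq start (GRCm38.p6), with every GC box, GGGCGG on either strand, in capitals. Cbl is from chr9:44234047-44234296 and Ubash3b from chr9:41158063-41158312, both on the minus strand.
Cbl: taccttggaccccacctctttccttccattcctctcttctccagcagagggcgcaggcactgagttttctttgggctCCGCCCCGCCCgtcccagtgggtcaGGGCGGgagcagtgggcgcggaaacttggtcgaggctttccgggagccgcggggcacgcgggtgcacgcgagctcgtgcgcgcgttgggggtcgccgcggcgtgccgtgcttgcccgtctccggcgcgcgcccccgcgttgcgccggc
Ubash3b: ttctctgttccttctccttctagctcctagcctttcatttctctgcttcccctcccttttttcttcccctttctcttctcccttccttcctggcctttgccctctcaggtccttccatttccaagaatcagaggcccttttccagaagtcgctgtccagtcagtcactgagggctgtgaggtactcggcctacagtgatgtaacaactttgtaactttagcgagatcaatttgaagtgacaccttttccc
The 2 windows were unlike in base composition, but they are placed differently. The Ubash3b window lies inside the GENCODE span of its gene (41011098 to 41161697). The Cbl window lies at the upstream end of its gene (44234049). The contrast may thus set an outer start beside an internal start, which was not tested. The Cbl window held 33 CpG dinucleotides, more than 96% of 32851 promoters of the same length, and 3 GC boxes. The Ubash3b window held 3 CpG dinucleotides and no GC box, and a GC box stood in 32.7% of all promoters. Both windows held 3 matches to the core letters of NFAT sites, GGAAA on either strand, a word found in 55.6% of promoters. Neither held TATAAA, found in 12.4%, or CANNTG, found in 66.2%. RefSeq promoters were matched for 7 of the 8 genes, and for Ubash3b the RefSeq start that lies farther upstream was used.

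The adaptors and the scaffold did not pass the test. Sla (ENSMUSG00000022372, chromosome 15, 66780819 to 66831829), which encodes SLAP, was the most abundant of the 8 genes. It had 20176, 19994 and 18126 normalised counts in double knockout libraries, against 16745, 17548 and 15674 in controls. The groups did not overlap, yet the difference was small, with a mean of 117% of control and a log2 fold change of 0.22 (95% confidence interval -0.01 to 0.45, limma adjusted p = 0.314). Sla lies inside the thyroglobulin gene Tg on the opposite strand without shared exon bases, and Tg had 1052 reads over the 6 libraries, against 110543 for Sla.

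Sla2 (ENSMUSG00000027636, chromosome 2, 156872457 to 156887192) had 1610, 1768 and 1223 normalised counts in double knockout libraries, against 1414, 1421 and 1697 in controls. The groups overlapped, with a log2 fold change of 0.01 (95% confidence interval -0.35 to 0.37, limma adjusted p = 0.987). Of the 31-base words of its transcripts, 21.5% also occur in 1 other gene. Sla2 shares 731 exon bases with Rab5if on the opposite strand, which had 16662 reads over the 6 libraries against 9360 for Sla2. Words were compared on both strands, so Rab5if may be that other gene. No source here states whether counting used strand, so reads of the exon bases shared with Rab5if cannot be told apart. The log2 ratio of Sla to Sla2 was 3.65, 3.50 and 3.89 in double knockout libraries, against 3.56, 3.63 and 3.21 in controls, with overlapping groups (difference 0.21, two-sided exact permutation p = 0.4, also 0.4 adjusted over 3 ratios).

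Cd2ap (ENSMUSG00000061665, chromosome 17, 42792951 to 42876665), the scaffold, had 2384, 2421 and 2663 normalised counts in double knockout libraries, against 2730, 3045 and 2263 in controls. The double knockout libraries lay within the range of the controls. Of the 31-base words of its transcripts, 10.5% also occur in other genes. The log2 fold change was -0.10 (95% confidence interval -0.39 to 0.19, limma adjusted p = 0.776). Control replicate 3 was the lowest control for Cbl, Cblb, Cbll1, Ubash3b, Cd2ap and Sla, and the highest for Ubash3a and Sla2.

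Set side by side per kilobase of exon, the order of the 8 genes differed between the groups. In the double knockout the mean normalised count per kilobase was 2115 for Sla, 744 for Cblb, 641 for Ubash3a, 495 for Sla2, 306 for Cbll1, 252 for Cbl, 157 for Cd2ap and 153.9 for Ubash3b. Neighbours whose library ranges overlapped were Cblb and Ubash3a, Ubash3a and Sla2, Cbll1 and Cbl, and Cd2ap and Ubash3b. In the control it was 1813 for Sla, 917 for Cbl, 825 for Cblb, 689 for Ubash3a, 488 for Sla2, 416 for Cbll1, 291 for Ubash3b and 169 for Cd2ap. Here the neighbours with overlapping ranges were Cbl and Cblb, and Cblb and Ubash3a. Cbl thus stood sixth in the double knockout and second in the control, and Ubash3b eighth and seventh.

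The wider pathway was read through 4 lists with 50 genes in all, of which 49 were tested and 1, Cd247, fell while none rose. Over all genes tested 1.07% were called lower and 1.85% higher, so the count for the lists lies near that of all genes. Their median log2 fold change was -0.10, beside -0.0011 over all genes tested. Of the 49, 7 were lower in every double knockout library than in every control and 5 were higher, which is 14.3% and 10.2%, beside 11.3% and 12.3% of all genes tested. Cd247 encodes the zeta chain of the T cell receptor complex, the chain that SLAP and CBL act on. It is in the list of 18 CBL and CBL-B targets, which had a median of 0.09. Cd247 had 8623, 10572 and 8062 normalised counts in double knockout libraries, against 22175, 22644 and 26240 in controls. Every double knockout library held less than any control, and the log2 fold change was -1.39 ± 0.13 (SE, limma adjusted p = 0.00424). The other chains of the CD3 complex in that list did not pass: Cd3e had a log2 fold change of 0.29, Cd3d of 0.16 and Cd3g of -0.22. Nor did the kinases that CBL proteins act on, Zap70 (0.10), Syk (-0.74), Lck (0.09) and Fyn (-0.16). Syk was far less abundant than the others, at 42.0, 59.0 and 54.6 normalised counts in double knockout libraries, against 111.8, 78.1 and 74.4 in controls. The groups did not overlap for Syk, and which cells its few reads came from was not tested.

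The list of CBL-bound adaptors and scaffolds held 16 genes, among them Cd2, a surface receptor gene that is neither. None of the 16 passed, and the median log2 fold change was -0.11. The smallest p-values belonged to a pair of related SH2B adaptors. Sh2b2 (APS), which brings CBL to receptor kinases, had 37.9, 36.1 and 43.0 normalised counts in double knockout libraries, against 77.9, 75.4 and 81.7 in controls (log2 fold change -0.99 ± 0.26, limma adjusted p = 0.0877). Sh2b3 (LNK), a brake on cytokine receptor signalling, had 2227, 3360 and 2904 in double knockout libraries, against 3901, 4328 and 4098 in controls (log2 fold change -0.56 ± 0.15, limma adjusted p = 0.0987). Both genes are among the 7 list genes that were lower in every double knockout library. Both passed as lower with DESeq2 on the recovered reads (adjusted p = 0.0341 for Sh2b2 and 0.027 for Sh2b3), which called 3.19% of genes lower. Sh3kbp1, which encodes the CD2AP relative CIN85, had a log2 fold change of -0.04, and Cd2, whose product CD2AP was named for, of -0.06.

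A list of 9 genes covered ubiquitin enzymes and a ubiquitin-like modifier that act with or on CBL. Of these, 8 were tested and none passed, with a median log2 fold change of -0.19. The smallest p-values were those of Nedd8, the ubiquitin-like modifier, at 2445 ± 252 normalised counts in double knockout libraries and 2987 ± 484 in controls, and of the conjugating enzyme gene Ube2d2a, at 3756 ± 182 in double knockout libraries and 4287 ± 316 in controls (SD, n = 3 each; limma adjusted p = 0.355 and 0.372). Of 7 CBLL1 partners in the m6A writer complex none passed, with a median log2 fold change of -0.11. Virma, a scaffold of that complex, had 7062 ± 695 normalised counts in double knockout libraries and 8305 ± 840 in controls, and Wtap, its core adaptor, 3354 ± 114 in double knockout libraries and 3767 ± 161 in controls (SD, n = 3 each; limma adjusted p = 0.365 and 0.388).

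**Figure D5:**
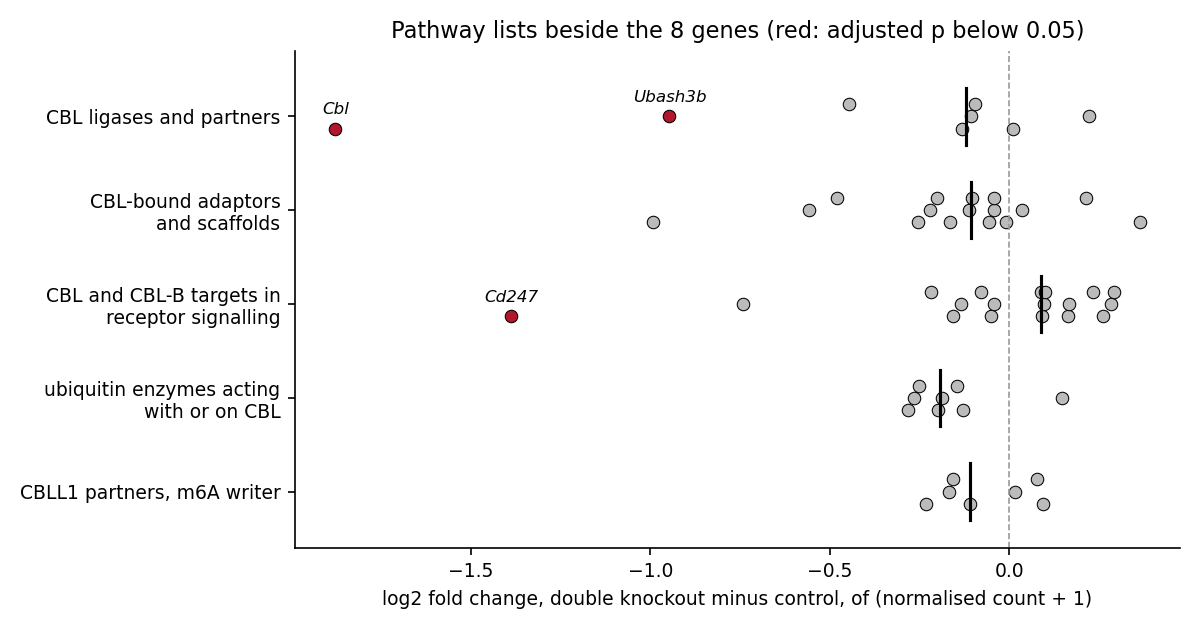
Log2 fold changes (x axis, double knockout minus control, of normalised count + 1) of the 8 genes and of the tested genes of 4 pathway lists. Each point is a gene, red where the adjusted p was below 0.05, and black bars are list medians. Cbl, Ubash3b and Cd247 are the genes that passed.

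For each of the 8 genes, the 2 tested genes whose log2 values ran most closely with it over the 6 libraries were found among 10010 genes, as a description without a test. With 6 libraries in 2 groups, a high Pearson r follows for many genes that differ between the groups. Cbl ran closest to Slamf6, a SLAM family receptor of T cells (r = 0.997), and to Rnf43, a membrane ubiquitin ligase gene (r = 0.997). Slamf6 had 12825, 14283 and 10991 normalised counts in double knockout libraries, against 24102, 22955 and 19856 in controls. Like Cbl it was lowest in replicate 3 of each group, a likeness that the choice by r favours. Ubash3b ran closest to Prkch, which encodes protein kinase C eta (r = 0.996), and Fam172a (r = 0.996). Prkch had 15307, 17958 and 13258 normalised counts in double knockout libraries, against 24954, 25151 and 22841 in controls (log2 fold change -0.66). Because Prkch was chosen for running with Ubash3b, its lower level in the double knockout is not a separate result. Cblb ran closest to the Polycomb subunit gene Suz12 (r = 0.994) and the calcium pump gene Atp2c1 (r = 0.987), and Cbll1 to Fhdc1 (r = 0.991) and the checkpoint gene Hus1 (r = 0.986). Ubash3a was matched by Mob3b (r = 0.993) and Tpst2 (r = 0.989), Cd2ap by Med14 (r = 0.984) and Luc7l2 (r = 0.982), and Sla2 by Dctn6 (r = 0.99) and Ermard (r = 0.985). Sla was matched by Wdr13 (r = 0.996) and by Rnf213, a large ubiquitin ligase gene (r = 0.994).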

How the data were processed

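All values come from 1 deposited table with a column for each of the 6 RNA-seq libraries. Its normalised signal is each gene's read count scaled by the authors to library size, per the file headers. DESeq2 1.12.3, STAR 2.5.1b and featureCounts 1.4.6 appear, along with GRCm38, in the submitters' processing notes, which give them no role. The table also holds the authors' deposited log2 fold changes, test statistic (score) and p-values, used as an alternative. Every value was a whole multiple of its column's smallest value above 0 (100% within 0.001 of a read), which gave back the whole reads.

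Normalised values call for a test on a log scale, so limma-trend 3.58.1 (R 4.3.3) was used on log2(value + 1), two-sided, over 13602 genes with at least 10 in at least 3 libraries, with no covariate beside genotype. The script was tested on simulated data. Alternatives were edgeR 4.0.16, DESeq2 1.42.0, the authors' comparison, other pseudocounts, filters and scalings, weights per library, a replicate block, and each library left out. Libraries of a group differed by more than counting noise in every pair (chi-square over its degrees of freedom 10.0 to 84.3). Counting error at the lowest read count of any of the 8 genes was 3.17%. Coordinates, exon lengths and transcripts are from GENCODE M21 (GRCm38). Promoters are from RefSeq (GRCm38.p6). The genes, lists and tests were chosen with earlier results of these data known. Named list genes were those past the threshold, at most 4 by smallest p, or otherwise the 2 of smallest p. Genes most like a member needed a mean of at least 50 and excluded predicted genes, pseudogenes and receptor segments. The rule was to count the neighbours of Cbl and Ubash3b without naming them. Mcam, Nlrx1, Sorl1 and Crtam depart from it, and they, Alcam, Bbx and the further list and marker genes were chosen after values were seen. Python 3.11.15, scipy 1.17.1 and matplotlib 3.10.9 were used for the rest.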

Additional observations from a re-analysis of the deposited data

How the results depend on the processing

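Over 88 fits of the 8 genes under settings that keep all libraries, 86 kept direction and side of the threshold. The exceptions, both with library weights, were Cbll1, which passed (-0.58), and Ubash3a, whose sign turned (0.019). With 1 library left out in turn, the log2 fold change ran from -2.06 to -1.65 for Cbl, from -1.13 to -0.79 for Ubash3b, from -0.26 to 0.046 for Ubash3a, from -0.21 to 0.0005 for Cd2ap and from -0.10 to 0.16 for Sla2. The number of the 8 genes called lower ran from 0 to 2. Pathway list genes called lower numbered 1 in the main test, 3 with DESeq2, 3 in the authors' deposited table, 4 with library weights, and 1 to 2 with a library left out. Those called higher numbered 0 in the main test, 1 with DESeq2, and 0 to 1 with a library left out. Over all genes, 146 were lower and 252 higher in the main test, 433 and 663 with DESeq2, 378 and 615 in the authors' deposited table, and 599 and 769 with library weights. With a library left out they ran from 13 to 244 lower and from 33 to 254 higher. The cause was not tested, but such fits have fewer libraries.

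Same-numbered libraries of the groups deviated together only weakly (correlations of 0.074, 0.054 and 0.092). Whether they share anything beside the number is not known here. With the replicate block, 95 genes were lower and 170 higher, and the calls of Cbl and Ubash3b held. For the ratios, pairing leaves the mean difference as it is by arithmetic. The two-sided exact permutation p with the pairing was 0.25 for Cbl over Cblb and for Ubash3b over Ubash3a, the smallest that 3 pairs allow, and 0.75 for Sla over Sla2. Neither form of the exact test could reach the threshold with 3 libraries a group.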

Other observations

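The tested protein-coding genes next to Cblb and Ubash3b are given as values. Alcam, an adhesion molecule gene that lies 40947 bases from Cblb, had 763, 760 and 1259 normalised counts in double knockout libraries, against 372, 610 and 313 in controls. The groups did not overlap, the mean was 2.15 times that of the control, and it did not pass (limma adjusted p = 0.0869). Bbx, 1598834 bases away on the other side of Cblb, had 2234 ± 186 in double knockout libraries and 1982 ± 287 in controls (SD, n = 3 each; limma adjusted p = 0.554). Towards Cbl, the nearest to Ubash3b is the sorting receptor gene Sorl1, 803022 bases away. It rose, at 2919, 3122 and 2405 in double knockout libraries, against 729, 1049 and 1404 in controls (limma adjusted p = 0.0192). Sorl1 and Mcam are the 2 genes counted above as risen between Ubash3b and Cbl. Crtam, an adhesion receptor gene of activated T cells, lies 6469 bases away on the other side of Ubash3b. It had 301, 221 and 36.7 in double knockout libraries, against 71.8, 64.4 and 23.0 in controls, with overlapping groups (limma adjusted p = 0.393).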
